A study of Rattus norvegicus with 24 samples.

Results

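The effect of a miR-222 mimic on heart muscle cells given doxorubicin was measured by RNA sequencing of neonatal rat ventricular myocytes, primary cells from the ventricles of newborn Sprague-Dawley rats. Its 6 libraries are the 3 labelled doxorubicin with miR-222 mimic and the 3 labelled doxorubicin with negative control mimic, out of 24 libraries in 8 groups of 3 (miR-222, miR-455, both mimics or control mimic, each with and without doxorubicin). Of 21767 genes in the deposited table, 14303 had enough counts to be tested. The cells of every group were transfected with synthetic mimics at 5 nM each, and after 48 h the drug or control treatment was given for 24 h. The sample protocol gives the doxorubicin dose as 4 µM and the series text as 4 mM, so the dose is not settled here. The replicates are not said to come from separate isolations, and p-values then measure the spread between these cultures, which may be technical.

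A microRNA guides Argonaute proteins to messenger RNAs that pair with its seed, bases 2 to 8 of the mature strand, and most paired messengers are repressed and degraded. miR-222-3p is transcribed with miR-221-3p from the X chromosome, is induced by exercise in the heart, and is known to repress the cell cycle inhibitors Cdkn1b and Cdkn1c and the kinases Kit and Hipk1. Doxorubicin is an anthracycline that poisons topoisomerase II, intercalates into nuclear and mitochondrial DNA, and injures heart muscle.

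The sample titles name miR-222 and miR-455 mimics without the arm, and the 3p arm was assumed here. The mature 3p sequences of both and of miR-221, the cluster partner, are shown 5′ to 3′ from RefSeq on GRCr8. The seed is in capitals because it selects the targets.
rno-miR-222-3p: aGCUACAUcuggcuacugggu
rno-miR-221-3p: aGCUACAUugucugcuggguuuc
rno-miR-455-3p: gCAGUCCAcgggcauauacacu
Rat miR-222-3p lies at chrX:6022682-6022702 and miR-221-3p at chrX:6023246-6023268, both on the plus strand. Among 724 mature rat entries in the table, miR-221-3p was the single other one with the seed of miR-222-3p, whose complement in a messenger reads AUGUAGC. miR-455-3p and the other arm, miR-222-5p, have other seeds. The 3′ untranslated regions of the measured genes were not analysed here, so no gene below is called a direct target.

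The 6 libraries held 17311955 to 24428725 counts, and 11469 to 13524 genes reached 10 counts. One library stood apart: control replicate 1 had the fewest counts and genes and took 38.2% of its counts from the 13 mitochondrially encoded genes, against 8.61% to 16.0% in the other 5. That share averaged 10.6% ± 2.04 in miR-222 cultures and 21.0% ± 15.3 in control cultures (SD, n = 3 each). The markers of heart muscle cells (8 of 8 present) summed to 18400 to 33600 CPM (the count as a share of the library total, scaled by TMM) with miR-222 and 29100 to 35900 with control mimic. The markers of fibroblasts (7 of 8 in the table) summed to 24900 to 27700 CPM with miR-222 and 23200 to 52800 with control mimic, so the cultures are not pure heart muscle. The markers of smooth muscle and pericytes summed to 969 to 2570 CPM with miR-222 and 1640 to 4040 with control mimic. Those of endothelium summed to 15.3 to 19.6 CPM with miR-222 and 27.8 to 38.6 with control mimic, without overlap. Those of macrophages and leukocytes summed to 1.7 to 2.83 CPM with miR-222 and 1.72 to 4.95 with control mimic. No marker in the table was at 0 in all 6 libraries, and a smaller number of cells of a type cannot be told apart from less RNA per cell.

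With miR-222 under doxorubicin 338 genes were lower and 227 were higher than with control mimic. These are 2.36% and 1.59% of the genes tested, and 3.95% together, by edgeR's quasi-likelihood test with Benjamini-Hochberg adjustment over all 14303 genes. The lowered genes fell by a median of 1.37 on the log2 scale and the raised genes rose by a median of 1.26. A fitted fold of at least 2 was reached by 264 lowered and 161 raised genes, and a fold of at least 4 by 63 and 36. All 338 lowered genes and 226 of the 227 raised genes had no overlap between the libraries of the groups, which 12.5% and 13.8% of all genes tested also showed in those directions. The median over all genes was -0.00208. Without control replicate 1, the library that stood apart, 195 genes were lower and 148 higher. Leaving out any 1 of the 6 libraries gave 142 to 334 lower genes and 115 to 198 higher genes, with the fewest lower genes without miR-222 replicate 3 and the fewest higher genes without miR-222 replicate 2.

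**Figure D1:**
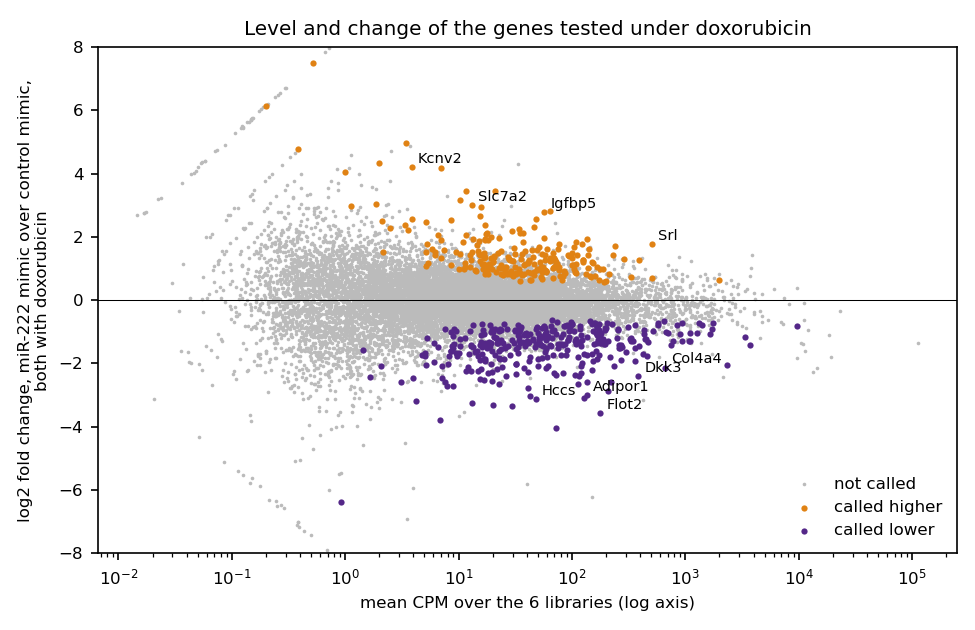
Mean level over the 6 libraries in CPM (log axis) against the log2 fold change of miR-222 over control mimic, both with doxorubicin, for the genes tested within 8 log2 units of 0. The 338 genes called lower (purple) and the 227 called higher (orange) are spread over the range of levels, and the grey genes centre on 0.

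Among the strongest lowered genes were those of a mitochondrial enzyme, a membrane scaffold and a receptor. Hccs, the enzyme that attaches heme to cytochrome c, was at 10.3, 8.89 and 10.4 CPM with miR-222 and at 108, 68.7 and 80.5 CPM with control mimic. The groups were far apart, and its log2 fold change was -3.12 ± 0.23 (SE; adjusted p = 9.69e-08, edgeR). Flot2, the membrane microdomain scaffold flotillin-2, was at 22.3, 36.1 and 25.1 CPM with miR-222 and at 327, 311 and 343 CPM with control mimic. Its log2 fold change of -3.55 ± 0.38 (adjusted p = 1.62e-05, edgeR) left a wide gap between the groups. Adipor1, a receptor for the hormone adiponectin, was at 30.3, 32.9 and 27.8 CPM with miR-222 and at 182, 271 and 267 CPM with control mimic. It fell by 2.99 on the log2 scale (SE 0.35, adjusted p = 3.35e-05, edgeR). These 3 genes kept their call whichever of the 6 libraries was left out.

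Several lowered genes encode secreted or cell surface proteins. Col4a4, a type IV collagen chain of basement membranes, was at 240, 274 and 225 CPM with miR-222 and at 1000, 1340 and 897 CPM with control mimic (log2 fold change -2.13 ± 0.19, adjusted p = 2.12e-06, edgeR). Dkk3, a secreted member of the dickkopf family, was at 126, 109 and 129 CPM with miR-222 and at 556, 676 and 697 CPM with control mimic (-2.40 ± 0.27). Serpinf1, the secreted pigment epithelium-derived factor, was at 57.3, 52.3 and 51.1 CPM with miR-222 and at 195, 315 and 223 CPM with control mimic (-2.19 ± 0.18). For all 3 the highest miR-222 library lay well below the lowest control library. Cd44, the hyaluronan receptor, was at 77.4, 55.8 and 55.3 CPM with miR-222 and at 207, 234 and 185 CPM with control mimic (-1.73 ± 0.18). Plekhb2, a protein of recycling endosomes, was at 22.7, 23.8 and 24.5 CPM with miR-222 and at 98.9, 147 and 119 CPM with control mimic (-2.36 ± 0.23). Neither gene's groups overlapped, and the adjusted p of Cd44 was 6.76e-06 and that of Plekhb2 5.91e-06 (edgeR). RGD1310352, which RefSeq lists as C10h5orf15, was at 89.5, 83.6 and 97.7 CPM with miR-222 and at 379, 414 and 348 CPM with control mimic (-2.08 ± 0.15). Among loci without a gene name, LOC691807 was at 8.98, 9.18 and 6.73 CPM with miR-222 and at 196, 83.2 and 127 CPM with control mimic (-4.03 ± 0.40), and LOC306766 had 52.1, 54.7 and 45.0 CPM with miR-222 and 180, 176 and 170 CPM with control mimic (-1.79 ± 0.17).

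Other genes of large change were lower. Unc13b, a priming factor of vesicle release, was at 4.25, 7.56 and 4.02 CPM with miR-222 and at 66.1, 56.0 and 38.2 CPM with control mimic (log2 fold change -3.34 ± 0.34). Gca, the calcium-binding protein grancalcin, was at 3.12, 4.39 and 3.54 CPM with miR-222 and at 60.2, 22.0 and 27.2 CPM with control mimic (-3.30 ± 0.42). Both were called without any 1 of the libraries, and the highest control value of each came from control replicate 1. Tox, a nuclear HMG-box protein, was at 0.945, 0.808 and 0.962 CPM with miR-222 and at 26.9, 5.36 and 6.03 CPM with control mimic (-3.80 ± 0.59). Tmeff1, a transmembrane protein with follistatin-like domains, was at 3.35, 2.25 and 2.01 CPM with miR-222 and at 31.1, 26.4 and 14.4 CPM with control mimic (-3.23 ± 0.51). Control replicate 1 was again the highest library of these genes, most of all for Tox.

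Among the raised genes, several were separated widely between the groups. Srl, the sarcoplasmic reticulum protein sarcalumenin, was at 826, 864 and 664 CPM with miR-222 and at 172, 285 and 226 CPM with control mimic. It had the smallest p among the raised genes that were shared with the other doxorubicin libraries (log2 fold change 1.79 ± 0.20, adjusted p = 2.05e-05, edgeR). Slc7a2, a transporter of cationic amino acids, was at 21.0, 25.0 and 23.8 CPM with miR-222 and at 1.72, 2.53 and 4.42 CPM with control mimic (3.00 ± 0.41). Igfbp5, which binds insulin-like growth factors, was at 112, 80.1 and 106 CPM with miR-222 and at 13.4, 15.1 and 14.7 CPM with control mimic (2.78 ± 0.52). The adjusted p of Slc7a2 was 0.000151 and that of Igfbp5 0.00311 (edgeR). Kcnv2, a silent potassium channel subunit, was at 5.06, 9.01 and 8.04 CPM with miR-222 and at 0, 0.309 and 0.809 CPM with control mimic (4.19 ± 0.60). Herc3, a ubiquitin ligase, was at 45.5, 67.0 and 32.7 CPM with miR-222 and at 10.6, 12.9 and 8.27 CPM with control mimic (2.19 ± 0.30). These genes were separated in every library and none of their calls was lost without 1 library.

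Other genes called higher under doxorubicin follow. Lrrc58 was at 101, 94.6 and 106 CPM with miR-222 and at 40.1, 45.8 and 39.9 CPM with control mimic (log2 fold change 1.26 ± 0.15). Pfdn5, a subunit of the prefoldin chaperone, was at 90.4, 103 and 87.8 CPM with miR-222 and at 46.7, 44.2 and 44.6 CPM with control mimic (1.05 ± 0.17). Lta4h, the leukotriene A4 hydrolase, was at 61.8, 86.0 and 66.4 CPM with miR-222 and at 32.2, 36.9 and 34.2 CPM with control mimic (1.05 ± 0.16). All 3 were called, with adjusted p of 3.18e-05 for Lrrc58, 0.000617 for Pfdn5 and 0.000602 for Lta4h (edgeR). Eif3el1, named as a translation initiation factor like gene, was at 145, 166 and 165 CPM with miR-222 and at 76.3, 30.7 and 41.1 CPM with control mimic (1.69 ± 0.27) with the highest control value in replicate 1. Its reads shared with similar copies were not examined. LOC100294508 was at 222, 211 and 213 CPM with miR-222 and at 40.7, 76.2 and 51.1 CPM with control mimic (1.94 ± 0.26), and AC106292.2 had 92.4, 85.9 and 90.7 CPM with miR-222 and 41.1, 37.2 and 35.1 CPM with control mimic (1.25 ± 0.19).

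Among the raised genes with the largest folds several were uneven or low. Med30, a Mediator subunit, was even at 27.9, 27.3 and 28.5 CPM with miR-222 and at 5.85, 2.42 and 2.74 CPM with control mimic (log2 fold change 2.95 ± 0.43). Wfs1, an endoplasmic reticulum membrane protein, was at 112, 120 and 104 CPM with miR-222 and at 1.11, 30.2 and 16.1 CPM with control mimic (2.81 ± 0.59). The low value of Wfs1 is control replicate 1. Lrrc4b, a synaptic adhesion protein, was at 57.6, 34.9 and 23.3 CPM with miR-222 and at 0.303, 7.27 and 2.74 CPM with control mimic (3.44 ± 0.68), with the same library lowest. Gdf10, a secreted TGF-beta family ligand, was at 3.69, 23.4 and 13.1 CPM with miR-222 and at 0, 0.515 and 1.62 CPM with control mimic (4.17 ± 0.85). G0s2, an inhibitor of triglyceride breakdown, was at 5.48, 54.4 and 4.42 CPM with miR-222 and at 3.94, 0.155 and 2.05 CPM with control mimic (3.45 ± 0.89). One miR-222 library carries the rise of G0s2, whose call was lost without miR-222 replicate 2, control replicate 2 or control replicate 3 (adjusted p 0.089 to 0.478, edgeR). Pvalb, the calcium-binding parvalbumin, was at 12.9, 0.982 and 6.08 CPM with miR-222 and at 0, 0.155 and 0.435 CPM with control mimic. Its fitted change was 4.96 ± 1.19, and the call was lost without miR-222 replicate 1 or 3 or control replicate 1 or 2 (adjusted p 0.063 to 0.107, edgeR). Alox15, a lipoxygenase, was at 10.2, 21.4 and 23.9 CPM with miR-222 and at 2.73, 0.67 and 2.86 CPM with control mimic (3.16 ± 0.73), and lost its call without miR-222 replicate 2 or 3 or control replicate 2 (adjusted p 0.0535 to 0.0697, edgeR).

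**Figure D2:**
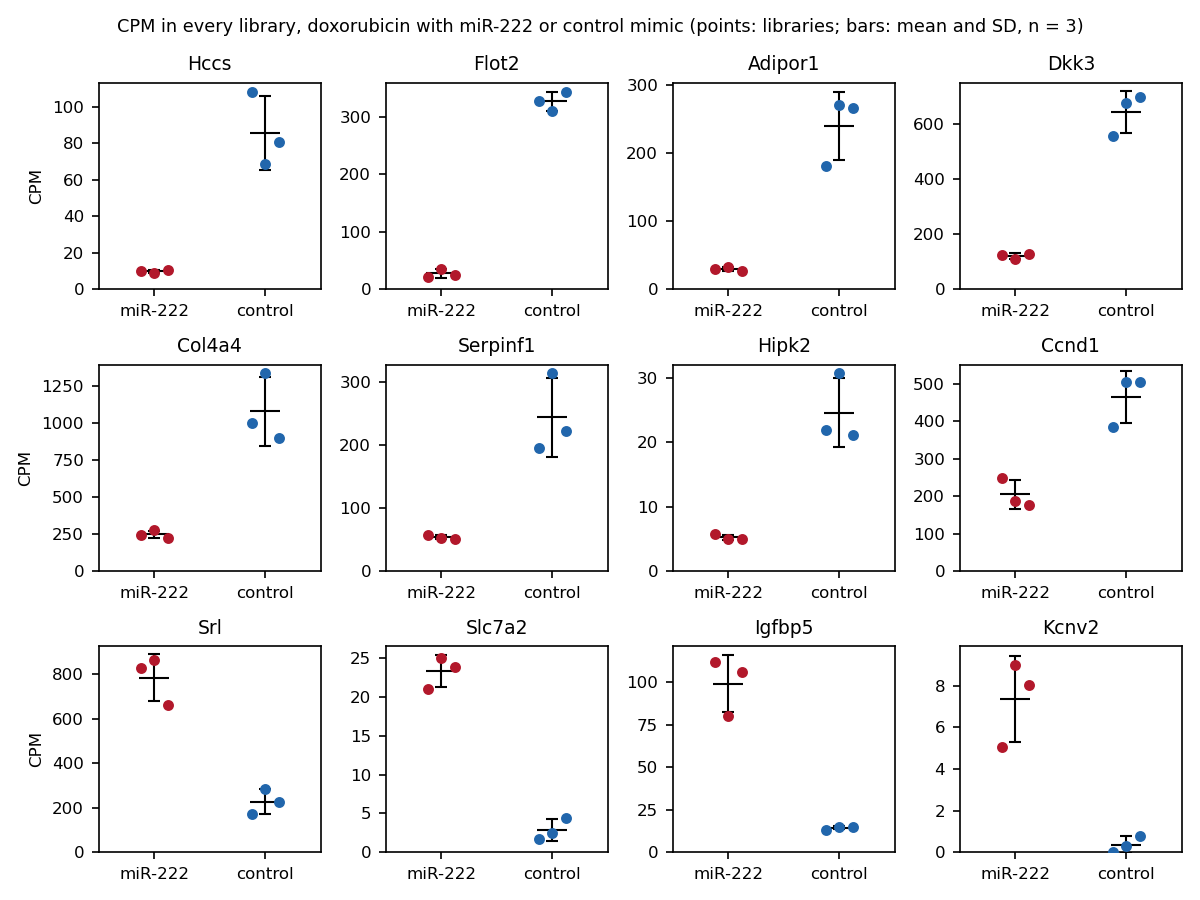
CPM of 12 genes in each of the 3 miR-222 libraries (left, red) and the 3 control libraries (right, blue), all with doxorubicin; bars are the mean and SD. In the top 8 panels every miR-222 library lies below every control library (Hccs 8.89 to 10.4 against 68.7 to 108 CPM), and in the last 4 every one lies above (Igfbp5 80.1 to 112 against 13.4 to 15.1 CPM).

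The same mimic was also given beside miR-455 under doxorubicin, in 6 libraries that share none with those above. There 222 genes (1.55%) were higher and 133 (0.93%) lower with both mimics than with miR-455 alone, 2.48% together. Of the 338 genes lowered by miR-222 alone, 274 (81.1%) were also below 0 in this comparison, against 53.1% of all genes. They include 77 called lower there, 22.8% of the 338 and 57.9% of the 133. Of the 227 raised genes, 207 (91.2%) were above 0, against 46.9% of all genes. They include 59 called higher there, 26% of the 227 and 26.6% of the 222, and no gene was called in the opposite direction. Leaving out 1 library gave 46 to 84 shared lowered genes, the fewest without miR-455 replicate 2, and 18 to 73 shared raised genes, the fewest without miR-455 replicate 1. The median log2 fold change beside miR-455 was -0.523 for the lowered genes and 0.601 for the raised ones. Across genes, which are not independent replicates, the fold changes of the 2 comparisons correlated with Pearson's r = 0.741 over the 565 called genes and r = 0.104 over all 14303.

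Without doxorubicin 644 genes (4.50%) were higher and 639 (4.47%) lower with miR-222 than with control mimic, again in libraries not used above. These 1283 calls became 300, 302 and 496 without miR-222 replicate 1, miR-222 replicate 2 and control replicate 1 of that comparison, below the 565 under doxorubicin, and 675 without control replicate 2. Of the 338 lowered genes 318 (94.1%) were below 0, against 47.4% of all genes, and 168 were called lower (49.7% of the 338, 26.3% of the 639). Of the 227 raised genes 203 (89.4%) were above 0, against 52.6% of all genes, and 91 were called higher (40.1% of the 227, 14.1% of the 644). Without 1 library 62 to 174 lowered and 39 to 86 raised genes were shared, the fewest lowered without miR-222 replicate 1 and the fewest raised without miR-222 replicate 2 of the cultures given no drug. One raised gene, Fam13a, was called lower without the drug. Beside miR-455 and without doxorubicin fewer genes passed, 45 higher (0.315%) and 62 lower (0.433%), 0.748% together. Of the lowered genes 81.1% were below 0 there, against 49.9% of all genes, and of the raised genes 74% were above 0, against 50.1%. Of the calls, 41 lowered genes (12.1% of the 338, 66.1% of the 62) and 11 raised genes (4.85% of the 227, 24.4% of the 45) were shared. In all 3 other comparisons together 232 of the 338 lowered genes (68.6%) and 149 of the 227 raised genes (65.6%) had the same sign, against 16.3% and 16.0% of all genes.

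**Figure D3:**
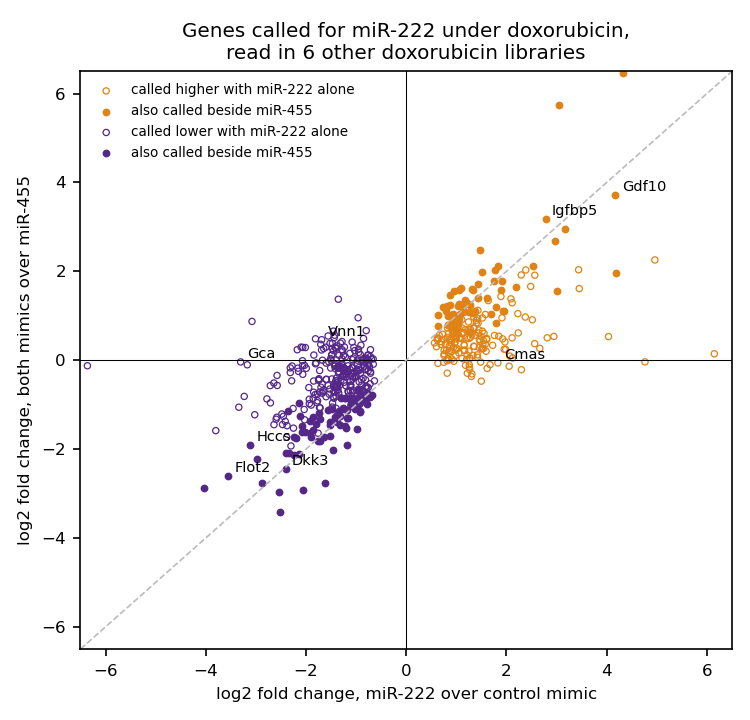
Log2 fold change of miR-222 over control mimic (x axis) and of both mimics over miR-455 (y axis), all with doxorubicin, for the 565 genes called in the first comparison; filled points were also called in the second (77 lower, 59 higher). Most points keep their sign, while Gca, Vnn1 and Cmas lie near or past 0 on the y axis.

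Called in the same direction in all 4 miR-222 comparisons were 27 lowered genes (7.99% of the 338) and 5 raised genes (2.20% of the 227), which are 0.189% and 0.035% of the genes tested. Leaving out 1 of the 24 libraries gave 9 to 32 lowered and 1 to 10 raised genes, the fewest lowered without replicate 1 of the cultures given both mimics and no drug. The lowered ones are Hccs, Adipor1, Dkk3, Serpinf1, Col4a4, Plekhb2, RGD1310352, Ackr4, Arf4, Ccnd1, Cdc16, Cmtm6, Emp1, Ggta1, Hipk1, Hipk2, Mrpl36, Nid1, Pdia6, Pole4, Scd2, Slc39a9, Snapin, Thbs2, Vapb, LOC691807 and AABR07007068.1. The raised ones include Igfbp5, Kcnv2, Arl6 and RGD1562136, which RefSeq lists as Macir. Ackr4, an atypical chemokine receptor that scavenges its ligands, was at 6.38, 6.0 and 4.76 CPM with miR-222 and at 31.3, 35.0 and 33.8 CPM with control mimic under doxorubicin. Its log2 fold change was -2.55 ± 0.35 there, -2.97 ± 0.36 beside miR-455, -3.09 ± 0.37 without doxorubicin and -2.88 ± 0.37 beside miR-455 without doxorubicin, nearly the same size in each. Hccs fell most with miR-222 alone under doxorubicin (-3.12 ± 0.23), against -1.91 ± 0.22 beside miR-455, -1.47 ± 0.21 without doxorubicin and -1.0 ± 0.21 beside miR-455 without doxorubicin. The difference from its fall beside miR-455 did not pass (adjusted p = 0.151, edgeR). Igfbp5 rose by 2.78 ± 0.52 with miR-222 alone under doxorubicin, 3.18 ± 0.53 beside miR-455, 4.07 ± 0.55 without doxorubicin and 3.61 ± 0.54 beside miR-455 without doxorubicin. Its levels without doxorubicin averaged 151 ± 13.2 CPM with miR-222 and 9.0 ± 5.58 CPM with control mimic (SD, n = 3 each).

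The other members of that group include trafficking and matrix genes. Arf4, a small GTPase of the Golgi, was at 112, 107 and 124 CPM with miR-222 and at 406, 480 and 402 CPM with control mimic under doxorubicin (log2 fold change -1.90 ± 0.24). Emp1, an epithelial membrane protein, was at 149, 152 and 111 CPM with miR-222 and at 440, 357 and 388 CPM with control mimic (-1.52 ± 0.19). Neither gene overlapped between the groups, and both were called without any 1 of the libraries. Nid1, the basement membrane linker nidogen-1, was at 508, 337 and 361 CPM with miR-222 and at 800, 1500 and 934 CPM with control mimic (-1.42 ± 0.23). Thbs2, the matrix protein thrombospondin-2, was at 62.3, 48.0 and 54.3 CPM with miR-222 and at 127, 149 and 116 CPM with control mimic (-1.25 ± 0.24). For miR-222 alone under doxorubicin, 15 of the 27 lowered and 2 of the 5 raised genes stayed called under all 14 other settings tried for that comparison. Their calls in the other comparisons were not followed gene by gene.

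**Figure D4:**
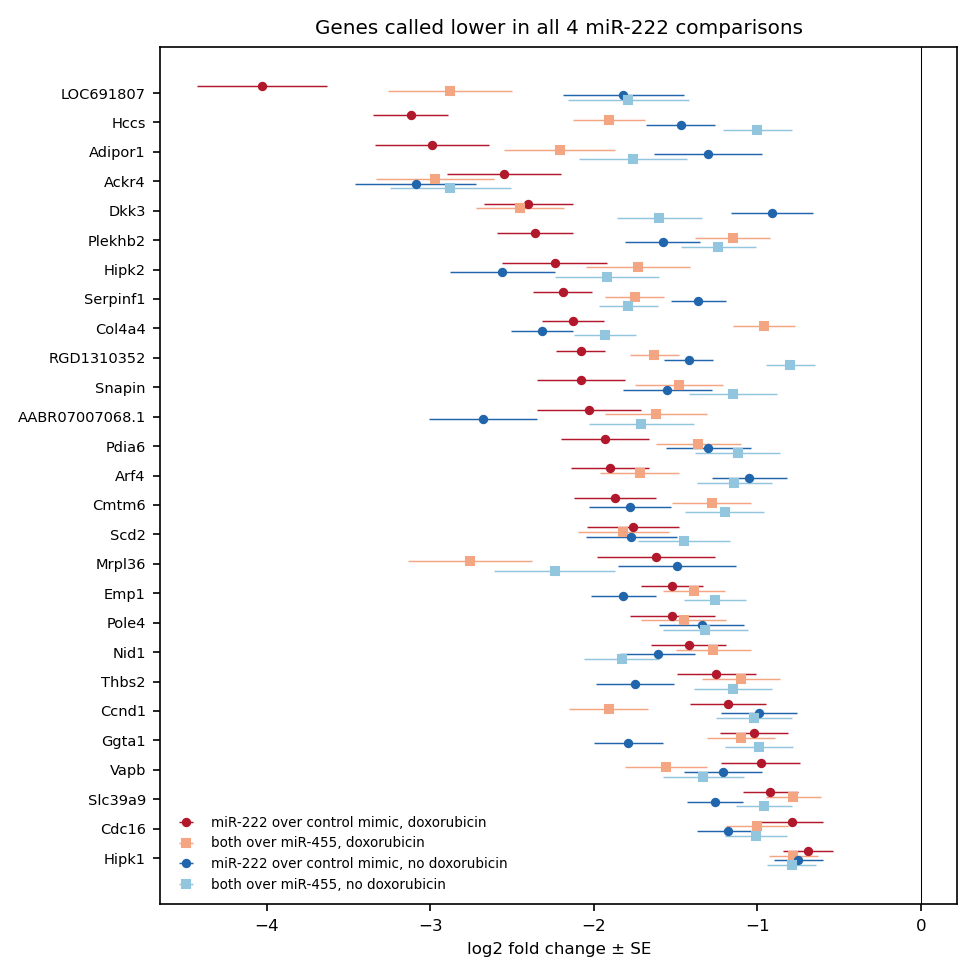
Log2 fold change ± SE of the 27 lowered genes in the 4 miR-222 comparisons: alone and beside miR-455, with doxorubicin (red) and without (blue). Ackr4 lies near -3 in all of them, while Hccs has its lowest point with miR-222 alone under doxorubicin.

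Of 22 targets of miR-222 reported in other systems 0 were called higher and 3 lower, and their median log2 fold change was -0.428. The shares of all genes, 1.59% higher and 2.36% lower, are the background here and for every list and family below. Before adjustment 1 target with a positive and 5 with a negative fold change had p under 0.05 (edgeR). Over all 14303 genes 971 and 1315 did. No overlap between the groups was shown by 3 higher and 7 lower targets, beside 13.8% and 12.5% of all genes. Hipk1, a nuclear serine/threonine kinase, was at 48.9, 60.4 and 58.5 CPM with miR-222 and at 80.8, 93.5 and 96.6 CPM with control mimic, without overlap. It fell by 0.69 ± 0.15 (adjusted p = 0.0121, edgeR) and was called in all 4 miR-222 comparisons, but not without miR-222 replicate 1 (adjusted p = 0.0805). Kit, the stem cell factor receptor, was at 7.56, 7.97 and 11.5 CPM with miR-222 and at 30.4, 13.8 and 23.2 CPM with control mimic (-1.31 ± 0.36, adjusted p = 0.0441, edgeR). Hmbox1, a homeobox protein, was at 2.27, 2.31 and 2.01 CPM with miR-222 and at 14.5, 3.61 and 3.79 CPM with control mimic (-1.72 ± 0.47, adjusted p = 0.0421, edgeR). The call of Kit was lost without any 1 of 5 libraries (adjusted p 0.0764 to 0.208) and that of Hmbox1 without any miR-222 replicate or control replicate 1 (0.126 to 0.446). Without doxorubicin 5 of the 22 targets were called higher and 5 lower, beside 4.50% and 4.47% of all genes. Their median there was 0.0105, so the targets did not lean lower as a list without the drug. Beside miR-455 their median was -0.414 with doxorubicin and -0.264 without it.

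Cdkn1b, Cdkn1c and Timp3, all well known targets, did not pass the test. Cdkn1b, the cell cycle inhibitor p27, was at 7.89, 17.4 and 11.6 CPM with miR-222 and at 9.39, 18 and 19.8 CPM with control mimic (log2 fold change -0.36 ± 0.33, adjusted p = 0.668, edgeR). Cdkn1c, the inhibitor p57, was at 30.1, 30.7 and 19.9 CPM with miR-222 and at 41.9, 41.2 and 25.1 CPM with control mimic (-0.42 ± 0.42, adjusted p = 0.695). Both pairs of groups overlapped. Timp3, an inhibitor of metalloproteinases, was at 10.8, 8.66 and 6.51 CPM with miR-222 and at 25.1, 51.1 and 19.9 CPM with control mimic (-1.89 ± 0.73, adjusted p = 0.183). Its groups did not overlap, and without doxorubicin it was called lower (-2.55).

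The HIPK kinases, of which Hipk1 is a listed target, were examined as a family chosen after its members' values were seen. Of 4 tested, 3 were lower and 0 higher, beside 2.36% and 1.59% of all genes, with a median of -0.984. Hipk2, which phosphorylates p53 after DNA damage, was at 5.67, 4.97 and 5.03 CPM with miR-222 and at 21.9, 30.8 and 21.2 CPM with control mimic (log2 fold change -2.24 ± 0.32, adjusted p = 0.00026, edgeR). Hipk3 was at 62.3, 70.1 and 53.2 CPM with miR-222 and at 159, 162 and 129 CPM with control mimic (-1.28 ± 0.24, adjusted p = 0.00374). Neither overlapped, and both were called without any 1 of the libraries. Hipk2 was also lower beside miR-455 (-1.73), while Hipk3 there changed by -0.18 and was not called (adjusted p = 0.277 for the difference, edgeR).

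Of 14 G1 cyclins, cyclin-dependent kinases and their inhibitors 2 were lower, Ccnd1 and Ccnd2, and 0 higher, with a median of -0.307. Ccnd1, cyclin D1, was at 250, 188 and 176 CPM with miR-222 and at 386, 505 and 505 CPM with control mimic. It fell by 1.18 ± 0.23 (adjusted p = 0.00453, edgeR) and was lower in all 4 miR-222 comparisons, most beside miR-455 under doxorubicin (-1.91 ± 0.24). Ccnd2, cyclin D2, was at 126, 127 and 108 CPM with miR-222 and at 241, 159 and 192 CPM with control mimic (-0.71 ± 0.17, adjusted p = 0.0175), and lost its call without any miR-222 replicate or control replicate 1 (adjusted p 0.0501 to 0.123). Of 29 genes of the cell division machinery 0 passed with edgeR and 0 with DESeq2, although 3 were lower at an unadjusted p under 0.05.

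Among 29 G protein subunits, a family chosen after values were seen, 4 were lower and 0 higher, beside 2.36% and 1.59% of all genes. Gna12, the alpha-12 subunit, was at 48.0, 50.6 and 51.1 CPM with miR-222 and at 342, 361 and 399 CPM with control mimic. This tight and wide gap (log2 fold change -2.88 ± 0.34, adjusted p = 4.33e-05, edgeR) recurred beside miR-455 (-2.76 ± 0.34). Gnai2, an inhibitory alpha subunit, was at 270, 273 and 256 CPM with miR-222 and at 454, 840 and 579 CPM with control mimic (-1.23 ± 0.22). Gnb4 changed by -0.92 and Gng2 by -1.01, and both lost their calls when most single libraries were left out (adjusted p 0.0583 to 0.199, edgeR).

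Several extracellular matrix genes were lower. Of 17 fibroblast and matrix genes 5 were lower and 0 higher, beside 2.36% and 1.59% of all genes, with a median of -0.456. Timp1, a metalloproteinase inhibitor, was at 89.1, 74.1 and 78.2 CPM with miR-222 and at 214, 327 and 191 CPM with control mimic (log2 fold change -1.60 ± 0.23, adjusted p = 0.00022, edgeR). Lum, the matrix proteoglycan lumican, was at 55.5, 45.6 and 38.7 CPM with miR-222 and at 212, 240 and 135 CPM with control mimic (-2.07 ± 0.53). Thy1, a fibroblast surface protein, was at 6.47, 12.9 and 5.68 CPM with miR-222 and at 15.1, 76.3 and 40.9 CPM with control mimic (-2.40 ± 0.55). The groups did not overlap for any of these, and the summed fibroblast markers were 24900 to 27700 CPM with miR-222 and 23200 to 52800 with control mimic. Sparc, an abundant matrix protein, was at 7900, 6760 and 6440 CPM with miR-222 and at 10300, 15600 and 11200 CPM with control mimic (-0.81 ± 0.21). Timp1 was called without any 1 library, whereas Lum, Thy1, Sparc and Col6a1 were not (adjusted p 0.0542 to 0.187, edgeR), and 1 gene of the list was called without control replicate 2, miR-222 replicate 1 or miR-222 replicate 3, and 2 without miR-222 replicate 2. The part of the fibroblast markers in these values was not tested.

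Collagens, chosen as a family after values were seen, gave 5 lower and 0 higher of 35 tested, beside 2.36% and 1.59% of all genes. Beside Col4a4, its partner chain Col4a3 was at 51.5, 63.0 and 51.2 CPM with miR-222 and at 86.9, 197 and 109 CPM with control mimic (log2 fold change -1.24 ± 0.28). Col6a1 was at 587, 673 and 492 CPM with miR-222 and at 782, 1790 and 1090 CPM with control mimic (-1.07 ± 0.28), and Col6a2 had 699, 659 and 508 CPM with miR-222 and 841, 2460 and 1290 CPM with control mimic (-1.30 ± 0.34). Col12a1 was at 287, 282 and 227 CPM with miR-222 and at 461, 533 and 379 CPM with control mimic (-0.79 ± 0.18). Control replicate 2 was the highest library for each of these 4 genes, and all of their calls were lost without it (adjusted p 0.068 to 0.213, edgeR), while Col4a4 kept its own. The family's count was also 1 without miR-222 replicate 3, 2 without miR-222 replicate 1 and 3 without miR-222 replicate 2.

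Several contractile genes were lower. Of 21 sarcomere genes 5 were lower and 0 higher, beside 2.36% and 1.59% of all genes, with a median of -0.392. Myh7, the slow myosin heavy chain that the newborn and stressed rat ventricle expresses, was at 352, 1480 and 900 CPM with miR-222 and at 4690, 2740 and 3780 CPM with control mimic (log2 fold change -2.04 ± 0.53, adjusted p = 0.0319, edgeR). Myh6, the fast adult chain, was at 5300, 11000 and 6540 CPM with miR-222 and at 8350, 5600 and 7760 CPM with control mimic, and was not called (0.08 ± 0.36, adjusted p = 0.946). The groups were separate for Myh7 and overlapped for Myh6. Ldb3, a Z-disc protein, was at 68.6, 89.8 and 57.8 CPM with miR-222 and at 239, 262 and 280 CPM with control mimic (-1.86 ± 0.27, adjusted p = 0.000237). Ldb3 was also lower beside miR-455 (-1.57) and was called without any 1 library.

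The other lowered sarcomere genes were less even. Myom2, an M-band protein, was at 15.2, 6.81 and 5.9 CPM with miR-222 and at 80.6, 104 and 42.2 CPM with control mimic (log2 fold change -3.02 ± 0.76). Nebl, the thin filament protein nebulette, was at 32.1, 30.1 and 18.8 CPM with miR-222 and at 380, 189 and 116 CPM with control mimic (-3.08 ± 0.80). Csrp3, a Z-disc stretch sensor, was at 59.1, 30.9 and 21.5 CPM with miR-222 and at 83.9, 335 and 163 CPM with control mimic (-2.39 ± 0.63). None overlapped between the groups. The calls of Myh7, Myom2, Nebl and Csrp3 were each lost without 3 to 5 of the single libraries (adjusted p 0.0511 to 0.188, edgeR), control replicate 1 among them for Myh7, Myom2 and Nebl. Leaving out 1 library gave 1 to 4 lower sarcomere genes, the fewest without miR-222 replicate 3.

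Genes of calcium handling and conduction gave 3 lower and 0 higher of 23. Pln, phospholamban, which restrains the sarcoplasmic reticulum calcium pump, was at 24.0, 72.9 and 25.0 CPM with miR-222 and at 310, 132 and 164 CPM with control mimic (log2 fold change -2.31 ± 0.64, adjusted p = 0.0451, edgeR). Gja1, the gap junction protein connexin 43, was at 70.7, 146 and 77.5 CPM with miR-222 and at 489, 222 and 301 CPM with control mimic (-1.78 ± 0.41, adjusted p = 0.0161). Camk2d, a calcium/calmodulin-dependent kinase, was at 67.3, 68.5 and 57.3 CPM with miR-222 and at 271, 124 and 134 CPM with control mimic (-1.45 ± 0.32, adjusted p = 0.0121). Control replicate 1 had the highest value of all 3, and without it none was called (adjusted p 0.102 to 0.195). The list's count was also 0 without miR-222 replicate 3 and was 1 without miR-222 replicate 1 and 2 without control replicate 3. Of 14 cardiac stress genes 2 were lower, Myh7 and Fhl1, a LIM-domain protein of hypertrophy, at 520, 488 and 340 CPM with miR-222 and 1160, 1180 and 936 CPM with control mimic (-1.28 ± 0.32). The call of Fhl1 was lost without any 1 of 5 libraries (adjusted p 0.0531 to 0.156).

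The natriuretic peptides did not pass under doxorubicin. Nppa was at 8820, 13600 and 13100 CPM with miR-222 and at 19800, 24800 and 31700 CPM with control mimic (log2 fold change -1.10 ± 0.48, adjusted p = 0.245, edgeR). Nppb was at 351, 465 and 246 CPM with miR-222 and at 561, 1050 and 613 CPM with control mimic (-1.06 ± 0.37, adjusted p = 0.127). Neither peptide's groups overlapped, and beside miR-455 both were called lower, Nppa at -2.04 and Nppb at -1.77. Of 16 cardiac transcription factors 0 passed with edgeR and 0 with DESeq2, with 1 higher at an unadjusted p under 0.05 and a median of 0.243.

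The 13 mitochondrially encoded genes had a median of -1.68 and a range of -2.42 to -0.943, yet 0 were called (8 lower at an unadjusted p under 0.05, 2 with DESeq2). Mt-co1, a cytochrome c oxidase subunit, was at 51000, 84000 and 54700 CPM with miR-222 and at 314000, 68000 and 104000 CPM with control mimic (log2 fold change -1.36 ± 0.48, adjusted p = 0.134). The groups overlapped, and control replicate 1 was far above the others. Beside miR-455 the median of the 13 genes was 0.0917.

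Nuclear genes of the respiratory chain gave 2 higher and 2 lower of 26. Ndufb9, a complex I subunit, was at 194, 541 and 364 CPM with miR-222 and at 121, 71.3 and 141 CPM with control mimic (log2 fold change 1.72 ± 0.31, adjusted p = 0.00221, edgeR). Ndufv2, another, was at 301, 483 and 439 CPM with miR-222 and at 234, 96.4 and 164 CPM with control mimic (1.31 ± 0.30). Both rose without overlap. Sdhd, a membrane anchor of complex II, was at 181, 209 and 234 CPM with miR-222 and at 591, 428 and 696 CPM with control mimic (-1.46 ± 0.25). Ndufa10 was at 422, 429 and 455 CPM with miR-222 and at 807, 575 and 774 CPM with control mimic (-0.72 ± 0.19). Ndufv2 lost its call without miR-222 replicate 2 or 3 or control replicate 2 (adjusted p 0.0611 to 0.0744, edgeR), and Ndufa10 without any 1 of 5 libraries (0.104 to 0.151).

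Mitochondrial ribosomal proteins, a family chosen after values were seen, gave 8 higher and 3 lower of 78, with a median of 0.133. The shares of all genes were 1.59% higher and 2.36% lower. The family's higher count fell to 2 without miR-222 replicate 2, where mrpl9, Mrpl15, Mrpl30, Mrpl48, Mrpl53 and Mrps33 lost their calls. It was 4 without miR-222 replicate 3 or control replicate 2 and 5 without control replicate 1. Mrpl10 was at 70.9, 74.3 and 90.6 CPM with miR-222 and at 14.7, 25.3 and 33.8 CPM with control mimic (log2 fold change 1.67 ± 0.36). In the other direction Mrpl18 was at 6.33, 6.41 and 8.57 CPM with miR-222 and at 39.6, 20.4 and 21.8 CPM with control mimic (-1.94 ± 0.30). Mrpl36 was at 3.26, 3.87 and 5.6 CPM with miR-222 and at 9.69, 14.2 and 15.2 CPM with control mimic (-1.62 ± 0.36) and was lower in all 4 miR-222 comparisons. The remaining lowered one, Mrps10, was at 2.83, 2.19 and 2.19 CPM with miR-222 and at 11.1, 5.21 and 6.9 CPM with control mimic (-1.68 ± 0.32). Of these, Mrpl10 lost its call without control replicate 1 (adjusted p = 0.0592, edgeR) and Mrpl36 without miR-222 replicate 1 or 2 (0.0738 to 0.075). Of 40 SLC25 carriers Slc25a27 (1.53) and Slc25a51 (0.64) were higher and Slc25a40 (-1.94), Slc25a13 (-1.35) and Slc25a16 (-0.76) lower, and all but Slc25a13 lost their call without at least 4 of the single libraries (adjusted p 0.0548 to 0.169, edgeR).

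Of 6 peroxiredoxins, thiol peroxidases chosen as a family after values were seen, 2 were lower and 0 higher. Prdx3, the mitochondrial one, was at 131, 145 and 167 CPM with miR-222 and at 415, 360 and 454 CPM with control mimic (log2 fold change -1.47 ± 0.19, adjusted p = 9.02e-05, edgeR). It was also lower beside miR-455 with doxorubicin (-1.10) and without (-0.87), while miR-222 alone without doxorubicin gave -0.33 ± 0.19 and no call (adjusted p = 0.102 for the difference). Prdx4, of the endoplasmic reticulum, was at 71.8, 77.7 and 77.6 CPM with miR-222 and at 142, 193 and 155 CPM with control mimic (-1.11 ± 0.16, adjusted p = 0.000221). Both were called without any 1 of the libraries.

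Fuel genes gave few calls. Of 25 fatty acid oxidation genes 2 were lower and 0 higher, Etfa, an electron transfer flavoprotein, at 255, 240 and 296 CPM with miR-222 and 798, 436 and 636 CPM with control mimic (log2 fold change -1.24 ± 0.21, adjusted p = 0.00102, edgeR), and Decr1, which changed by -0.76 and lost its call without any 1 of 5 libraries (adjusted p 0.0621 to 0.162). Of 30 genes of glycolysis and the hypoxia response 0 passed with edgeR, although their median was 0.652. At an unadjusted p under 0.05 there were 4 higher and 2 lower, and with DESeq2 2 were called higher and 1 lower. Slc2a1, the glucose transporter GLUT1, was at 97.4, 174 and 87.8 CPM with miR-222 and at 20.4, 20.1 and 25.1 CPM with control mimic (2.45 ± 0.78, adjusted p = 0.09). Its groups were widely separated although it did not pass. Bnip3, a hypoxia-induced mitophagy receptor, was at 31.4, 158 and 67.4 CPM with miR-222 and at 1170, 152 and 946 CPM with control mimic (-3.14 ± 0.92, adjusted p = 0.0642), with control replicate 2 inside the miR-222 range.

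Lysosomal and endoplasmic reticulum genes gave scattered calls. Of 21 autophagy and lysosome genes 2 were lower, the cathepsins Ctsb and Ctsl. Ctsb was at 1370, 1030 and 1220 CPM with miR-222 and at 2590, 2290 and 1890 CPM with control mimic (log2 fold change -0.90 ± 0.20). Without control replicate 1 neither passed (adjusted p = 0.0571 for Ctsb and 0.163 for Ctsl, edgeR). Ctsb was also lost without miR-222 replicate 2 or 3 (0.0862 and 0.0586). The call of Ctsl was lost without any 1 of 5 libraries (0.0969 to 0.225). Of 18 subunits of the vacuolar proton pump, chosen after values were seen, 1 was higher and 3 lower. Atp6v0d1 was at 72.0, 45.4 and 73.6 CPM with miR-222 and at 269, 241 and 220 CPM with control mimic (-1.93 ± 0.31), while Atp6v1a was at 148, 134 and 140 CPM with miR-222 and at 82.7, 75.7 and 74.2 CPM with control mimic (0.86 ± 0.17). Both calls held without any 1 library. The other lowered subunits, Atp6v1d (-1.50) and Atp6v1g2 (-1.75), were highest in control replicate 1 and not called without it (adjusted p = 0.113 for Atp6v1d and 0.148 for Atp6v1g2). Atp6v1d was also lost without miR-222 replicate 2 or 3 (0.0733 and 0.0643), and Atp6v1g2 without miR-222 replicate 1 or 3 (0.135 and 0.15). Of 9 subunits of the endoplasmic reticulum membrane protein complex, which inserts membrane proteins, 1 was higher and 2 lower, a family chosen after values were seen. Emc1 was at 196, 227 and 214 CPM with miR-222 and at 44.2, 93.1 and 72.0 CPM with control mimic (1.60 ± 0.21), and Emc3 had 66.3, 58.0 and 66.3 CPM with miR-222 and 125, 128 and 119 CPM with control mimic (-0.96 ± 0.14). Emc4 was at 31.4, 25.3 and 26.8 CPM with miR-222 and at 248, 89.8 and 78.1 CPM with control mimic (-2.31 ± 0.49), and was not called without control replicate 1 (adjusted p = 0.0711) or miR-222 replicate 2 (0.0513).

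Stress response lists gave few calls at the adjusted threshold. Of 19 genes of endoplasmic reticulum stress 1 was higher, Vldlr, a lipoprotein receptor, at 91.7, 170 and 96.5 CPM with miR-222 and 41.6, 26.4 and 37.3 CPM with control mimic (log2 fold change 1.77 ± 0.38). It was also higher beside miR-455 (2.03) and lost its call without miR-222 replicate 2 (adjusted p = 0.0679, edgeR). Before adjustment p was under 0.05 for 4 genes of that list with a positive and 2 with a negative fold change, beside 971 and 1315 of all 14303 genes. Of 15 iron and ferroptosis genes 1 was higher and 1 lower. Before adjustment 4 had p under 0.05 in each direction. No overlap between the groups was shown by 6 higher and 4 lower iron and ferroptosis genes, beside 13.8% and 12.5% of all genes. Acsl4, which loads membranes with polyunsaturated fatty acids, was at 84.6, 104 and 82.3 CPM with miR-222 and at 39.1, 28.0 and 21.6 CPM with control mimic (1.61 ± 0.32, adjusted p = 0.00454). Slc11a2, an iron importer, was at 14, 12.1 and 15.1 CPM with miR-222 and at 33.8, 42.7 and 29.7 CPM with control mimic (-1.36 ± 0.27, adjusted p = 0.00492). Neither pair overlapped, and Acsl4 was called beside miR-455 too (1.40). Of 16 NRF2 targets Me1 was higher (0.74) and Txn1 lower (-0.76), and of 14 heat shock genes Hsp90ab1 was higher (0.64) and Hspd1 (-1.05) and Cryab (-0.73) lower. Each of these 5 calls was lost without at least 5 of the 6 single libraries (adjusted p 0.0514 to 0.29, edgeR). With no adjustment, p was under 0.05 for 2 NRF2 targets with a positive and 3 with a negative fold change and for 2 heat shock genes in each direction.

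Genes of the DNA damage response gave few calls at the adjusted threshold. Of 29 p53 targets 3 with a positive and 7 with a negative fold change had p under 0.05 before adjustment. Over all 14303 genes 971 and 1315 did. No overlap between the groups was shown by 4 higher and 8 lower p53 targets, beside 13.8% and 12.5% of all genes. After adjustment 1 was lower, Perp, an apoptosis-linked membrane protein, at 55.7, 86.8 and 68.1 CPM with miR-222 and 156, 151 and 103 CPM with control mimic (log2 fold change -0.96 ± 0.26, adjusted p = 0.0371, edgeR). Its call was lost without miR-222 replicate 1 or 3 or control replicate 1 or 2 (adjusted p 0.106 to 0.18). Cdkn1a, the p53-induced inhibitor p21, was at 745, 493 and 734 CPM with miR-222 and at 288, 634 and 613 CPM with control mimic (0.36 ± 0.57, adjusted p = 0.821), and Mdm2, the ubiquitin ligase of p53, had 197, 187 and 178 CPM with miR-222 and 433, 268 and 256 CPM with control mimic (-0.77 ± 0.44, adjusted p = 0.418). Of 20 apoptosis regulators 1 was higher, Diablo, an antagonist of caspase inhibitors, at 65.3, 61.3 and 53.2 CPM with miR-222 and 26.5, 36.0 and 34.8 CPM with control mimic (0.88 ± 0.19), and without control replicate 1 it was not called (adjusted p = 0.0575). Before adjustment 2 members of that list with a positive and 4 with a negative fold change had p under 0.05. Of 23 DNA repair genes 0 passed with edgeR and 0 with DESeq2 (3 lower at an unadjusted p under 0.05), and of 28 genes of PI3K, AKT and FOXO signalling 0 passed with either tool and 0 at an unadjusted p under 0.05.

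Inflammatory lists gave a single call. Of 25 interferon-stimulated genes Irf7, their transcriptional amplifier, was lower at 13.2, 13.9 and 12.6 CPM with miR-222 and 35.7, 36.3 and 42.0 CPM with control mimic (log2 fold change -1.52 ± 0.32, adjusted p = 0.00859, edgeR). It was lower beside miR-455 too (-1.72), and its call was lost without miR-222 replicate 3 (adjusted p = 0.0555). Without doxorubicin 11 of 25 members were called higher and the median was 1.38. The difference between the drug conditions was not tested for the list, and for Irf7 it did not pass (adjusted p = 0.0922). Of 17 NF-kB and cytokine genes 0 passed with edgeR (1 higher with DESeq2; 1 in each direction at an unadjusted p under 0.05), and of 20 immediate early genes 0 passed with either tool and 0 at an unadjusted p under 0.05. Of 13 genes of the microRNA machinery 0 passed with either tool and 0 at an unadjusted p under 0.05.

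Markers of other cell types gave 1 further call. Kdr, the endothelial VEGF receptor, was at 1.42, 0.693 and 0.393 CPM with miR-222 and at 13.3, 3.66 and 5.91 CPM with control mimic (log2 fold change -3.17 ± 0.69, adjusted p = 0.0109, edgeR), among 8 endothelial genes with 1 lower and 0 higher. Its highest value is control replicate 1, and its call was lost without that library, miR-222 replicate 2 or miR-222 replicate 3 (adjusted p 0.0621 to 0.0829). Of 9 smooth muscle and pericyte genes 0 passed with edgeR (1 lower with DESeq2, 1 lower at an unadjusted p under 0.05), and of 7 macrophage and leukocyte genes 0 passed with either tool (1 lower at an unadjusted p under 0.05).

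**Figure D5:**
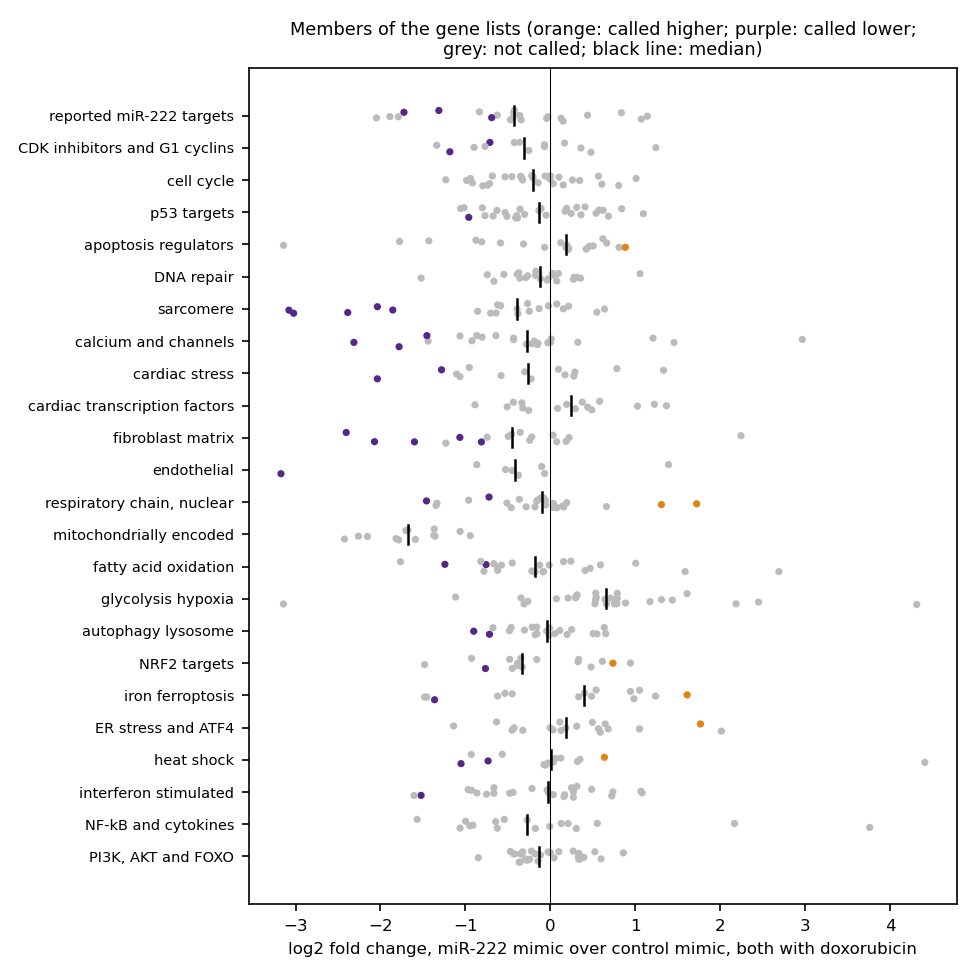
Log2 fold change of miR-222 over control mimic, both with doxorubicin, for each tested member of 24 gene lists; orange points were called higher, purple points lower, grey points neither, and black lines are the medians. The mitochondrially encoded genes have a median of -1.68 with 0 calls. The sarcomere and fibroblast lists have 5 lower calls each, of 21 and 17 members, beside 2.36% of all genes. Leaving out 1 library gave 1 to 4 lower calls in the sarcomere list and 1 to 5 in the fibroblast list.

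The mimic's effect under doxorubicin was also tested against its effect without the drug. The test of the difference called 7 genes (0.0489% of those tested), 1 with a more positive (0.00699%) and 6 with a more negative effect (0.0419%) under doxorubicin. Hccs fell further under the drug, by 3.12 ± 0.23 against 1.47 ± 0.21 without it on the log2 scale. Fam13a rose by 1.91 ± 0.43 under doxorubicin and fell by 1.43 ± 0.41 without it. The same test of miR-222 alone against miR-222 beside miR-455, both under doxorubicin, called 6 genes (0.0419%), 1 more positive (0.00699%) and 5 more negative (0.035%) alone. Vnn1, a pantetheinase, was at 83.0, 59.5 and 70.2 CPM with miR-222 and at 232, 259 and 195 CPM with control mimic (-1.69 ± 0.24), and at 73.5, 90.6 and 85.6 CPM with both mimics and at 60.6, 63.6 and 57.3 CPM with miR-455 (0.46 ± 0.23). Cmas, which activates sialic acid, was at 47.3, 69.3 and 55.4 CPM with miR-222 and at 15.8, 19.1 and 13.5 CPM with control mimic (1.83 ± 0.21), whereas beside miR-455 it was at 17.4, 15.9 and 14.8 CPM with both mimics and at 15.7, 18.4 and 16.1 CPM with miR-455 (-0.06 ± 0.21). These difference calls depended on single libraries and on the scaling, as the alternatives show.

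The called genes were last set beside the effect of doxorubicin itself, measured in the miR-455 cultures so that no library is shared; this comparison was added after the data had been seen. There 1290 genes (9.02%) were higher and 1303 (9.11%) lower with doxorubicin. Of the 338 genes lowered by miR-222, 92 (27.2%) were higher and 34 (10.1%) lower with the drug, with a median drug effect of 0.231 against 0.00386 over all genes. Of the 227 genes raised by miR-222, 27 (11.9%) were higher and 51 (22.5%) lower with the drug, with a median of -0.178. Leaving out 1 library gave 42 to 90 and 17 to 40 of the lowered genes, and 16 to 27 and 19 to 60 of the raised genes, called higher and lower with the drug. The fewest came without miR-222 replicate 3, and for the raised genes lower with the drug without miR-222 replicate 2. Dkk3 (1.33), Cd44 (1.95), Prdx3 (1.38), Ccnd1 (1.68), Ackr4 (2.40) and Etfa (1.64) were among the lowered genes that doxorubicin raised on the log2 scale. Herc3 (-1.42), Lrrc4b (-3.62) and Vldlr (-2.22) were among the raised genes that doxorubicin lowered. Hipk2 (-1.39), Myh7 (-2.11) and Ldb3 (-0.96) were lower with both the mimic and the drug.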

How the data were processed

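Gene counts of 24 libraries, 3 in each of 8 groups, came as 1 deposited table of expected counts. The submitters' processing notes name Salmon, DESeq2 and the build Rnor_6.0, with no versions or roles. Fractional values (7.35% of all) were rounded to whole counts. Genes were filtered with filterByExpr, scaled by TMM and fitted with edgeR 4.0.16 (R 4.3.3) as a means model of the 8 groups, so that all libraries share one estimate of spread; 14303 of 21767 genes were tested by the quasi-likelihood test with Benjamini-Hochberg adjustment and called at an adjusted p under 0.05. The SE is the size of the log2 fold change divided by the root of F. CPM is the count as a share of the TMM-scaled library total and is not divided by gene length, so it compares libraries and not genes. Polyadenylated RNA was sequenced, per the labels.

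The members and lists were chosen with earlier results of these data known. Lists hold 548 distinct genes, of which 519 were tested and 2 were matched by an older symbol; 10 families were chosen after values were seen. Named genes are the 10 with the largest change in each direction (at least 5 CPM, no overlap), the 10 shared with the other doxorubicin libraries with the smallest p, the leading members of each list, reported targets, and those called in all 4 comparisons or in a test of a difference. Alternatives were DESeq2 1.42.0, its size factors, other filters, leaving out mitochondrially encoded genes, the 6 libraries alone, a replicate block, each library left out, and 4 libraries left out together. Same-numbered miR-222 and control libraries under doxorubicin did not deviate together, and the numbers were not used as pairs. So few libraries cannot show whether the numbers mark a shared isolation or day. Targets by seed matches were not analysed here, and some genes are not reported here.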

Additional observations from a re-analysis of the deposited data

Results flagged for a closer look

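The test of the difference between the effect of miR-222 with doxorubicin and without it called 7 genes, each given as the log2 effect with the drug minus that without. They are Ephx1 (-2.37), Fam13a (3.34), Fgf1 (-2.48), Hccs (-1.64), Plcd4 (-2.40), Sel1l3 (-8.42) and Slc4a1 (-9.61). Fgf1, a growth factor, was at 8.27, 15.8 and 7.47 CPM with miR-222 and at 89.4, 60.2 and 67.1 CPM with control mimic under doxorubicin, and at 64.0, 68.4 and 45.7 CPM with miR-222 and 95.7, 64.1 and 60.0 CPM with control mimic without it. Ephx1, an epoxide hydrolase, was at 179, 101 and 154 CPM with miR-222 and at 90.0, 155 and 147 CPM with control mimic under doxorubicin, and at 92.3, 83.2 and 73.5 CPM with miR-222 and 10.8, 17.1 and 15.4 CPM with control mimic without it. Plcd4, a phospholipase C, was at 18, 13.6 and 13.6 CPM with miR-222 and at 18.1, 15.4 and 12.4 CPM with control mimic under doxorubicin, and at 18.6, 18 and 23.3 CPM with miR-222 and 4.69, 3.53 and 3.26 CPM with control mimic without it. Sel1l3 and Slc4a1 were at 0 CPM in all 3 control libraries without doxorubicin, so their fitted values depend on the prior count and are not a measure of size.

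The test of the difference between miR-222 alone and beside miR-455, both under doxorubicin, called 6 genes, each given as the log2 effect alone minus that beside miR-455. They are Bckdk (-1.20), Cmas (1.89), Gca (-3.27), Sqor (-2.29), Tmem183a (-1.48) and Vnn1 (-2.15). Bckdk, which inhibits breakdown of branched-chain amino acids, was at 221, 226 and 226 CPM with miR-222 and at 237, 238 and 241 CPM with control mimic, and at 136, 143 and 141 CPM with both mimics and 66.8, 64.8 and 62.3 CPM with miR-455. Sqor, a mitochondrial sulfide oxidase, was at 46.3, 36.1 and 34.9 CPM with miR-222 and at 34.0, 42.0 and 26.2 CPM with control mimic, and at 22.4, 47.9 and 30.5 CPM with both mimics and 6.31, 7.38 and 4.3 CPM with miR-455.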

How the results depend on the processing

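No call of miR-222 under doxorubicin changed sign in any alternative. Counts of its higher and lower genes were 430 and 617 with DESeq2's Wald test, 22 and 54 when the 6 libraries were fitted alone, and 538 and 673 when the 4 libraries with fewest genes were left out, a choice added after the data were seen; the number of libraries that estimate the spread differs between these fits. Under doxorubicin, pairs of control replicates differed by a chi-square per degree of freedom of 133 to 599, and pairs of miR-222 replicates by 54.4 to 95.9. The fit shares one estimate of spread over the groups, and the effect of this unevenness on the calls was not tested. Leaving out 1 library gave 115 to 198 higher and 142 to 334 lower genes. DESeq2's size factors gave 538 calls in all, no filter 447, a filter of 1 CPM 555 and no mitochondrially encoded genes 556. Same-numbered miR-222 and control libraries under doxorubicin correlated by -0.0597 to -0.00438 in their deviations, and differently numbered ones by -0.174 to 0.184. With 3 replicates per group, this cannot show whether the numbers mark a shared isolation or day. The fit with a replicate block called 431 genes, 428 of the 565 among them.

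Adding miR-222 to miR-455 under doxorubicin, the mimic without doxorubicin and its addition without doxorubicin called 1002, 2376 and 400 genes with DESeq2, 94, 485 and 0 with only the groups compared, and 779, 2832 and 514 without the 4 libraries; leaving out 1 library gave 108 to 1039, 300 to 1644 and 26 to 121.

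The difference between drug conditions called 0 genes with DESeq2's size factors, the 1 CPM filter, no mitochondrially encoded genes or the replicate block, 205 with DESeq2, 1 with only the groups compared and 148 without the 4 libraries; without 1 library it called 0 to 13. The difference between miR-222 alone and beside miR-455 called 0 with no filter, 13 with the 1 CPM filter and 13 without mitochondrially encoded genes, 1 with the replicate block, 189 with DESeq2, 0 with only the groups compared and 35 without the 4 libraries; without 1 library it called 0 to 24. The causes were not tested. Of 129 named genes called under doxorubicin, 68 kept their call whichever of the 6 libraries was left out. Those fits still took the spread from all 8 groups. Fitted with the 6 libraries alone, 90 named genes lost their call, among them Kcnv2, Timp1, Ccnd1, Etfa and Emc1. Depth limits genes near or below 1 CPM, about 20 counts.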
